A study of Arabidopsis thaliana with 4 samples.

Results

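The beta carbonic anhydrases of Arabidopsis thaliana are a family of 6 genes, CA1 to CA6 (CA3 to CA6 are also called BCA3 to BCA6). They were selected by locus identifier, and all 6 were found among the 27416 gene models of the deposited tables. The family was proposed with its values in these tables in view, so its levels and changes are given as a description, with no test. The study compared wild-type (WT) Col-0 seedlings kept in darkness with seedlings kept under red light at 60 µmol m-2 s-1, with 2 samples in each group. Both groups shared the same medium, half-strength MS with 1% sucrose, the same 4 days at 4 °C, and the same 12 h of white light before 4 days in their light condition. The growth time was given as 4.5 days, and whole seedlings were used, so the dark-grown plants had also seen white light. Poly(A) RNA was sequenced.

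Carbonic anhydrases interconvert carbon dioxide and bicarbonate with the help of a zinc ion, a reaction that is slow without an enzyme. Plants use several unrelated classes, and the beta class supplies most of the activity of leaves. Its members work in different parts of the cell. CA1 and CA5 are known from the chloroplast and CA2 and CA3 from the cytosol. CA4 is known from the plasma membrane and the cytosol, and CA6 from the mitochondrion. CA1, also known as the salicylic acid-binding protein SABP3, is among the most abundant stromal proteins of a green leaf. CA1 and CA4 are also known to act in guard cells, where they take part in the stomatal response to carbon dioxide.

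Each of the 6 coding sequences held a single stretch that reads cysteine, any residue, aspartate, any residue, arginine, the zinc-binding cysteine and the aspartate-arginine pair that mark the active site of the beta class. The stretches are shown with 15 bases on each side, read 5′ to 3′ from the coding sequence of the counted gene model in the RefSeq TAIR10.1 annotation. They are shown because they mark the beta class and let its members be compared. Capitals mark the 15 bases of the 5 codons.
CA1: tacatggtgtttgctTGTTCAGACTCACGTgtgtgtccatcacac
CA2: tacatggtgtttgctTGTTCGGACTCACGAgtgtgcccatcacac
CA3: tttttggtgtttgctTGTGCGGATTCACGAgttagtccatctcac
CA4: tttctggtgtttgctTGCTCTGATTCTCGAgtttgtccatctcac
CA5: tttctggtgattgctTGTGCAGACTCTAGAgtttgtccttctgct
CA6: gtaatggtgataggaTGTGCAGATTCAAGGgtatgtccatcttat
CA1 and CA2 differed at 3 of these 45 bases, CA3 and CA4 at 6, and CA2 and CA6 at 17. Over the whole aligned coding sequence CA1 and CA2 were identical at 81.2% of bases and CA3 and CA4 at 78.5%. The other pairs lay between 60.0% (CA1 and CA6) and 68.8% (CA2 and CA4). CA1 and CA2 had 17 stretches of 31 bases in common, 1.68% of those in CA1 and 1.76% of those in CA2. No other member shared a 31-base stretch with any other gene model, and no coding base of a member lay inside the span of another annotated gene. The handling of reads with several matches was not given in the sources used here. In darkness CA2 had 271998 reads against 10219 for CA1. Even a small share of CA2 reads assigned to CA1 would therefore weigh on the dark level of CA1 and on ratios that use it. This was not tested, and the counting intervals below do not cover it.

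The tables held 1 column of reads and 1 column of RPKM (a level in which reads are divided by gene-model length and by the column total) for each condition. How the 2 samples of a group entered their column was not stated. Total reads were 41106535 for darkness and 33521717 for red light. No value therefore had an error between samples, no difference had a replicate check, and bracketed ranges are 95% intervals, exact and for counting error alone. A gene was called when RPKM + 1 differed 2-fold between conditions and the higher RPKM was at least 10. Among the 12625 genes that reached 10 RPKM, the rule called 8.69% higher in red light and 5.35% lower, 14.0% in all, and the median log2 change was -0.11. Of the 6 beta carbonic anhydrases, 5 reached 10 RPKM, and of these 1 was called higher (CA1), 2 lower (CA2 and CA6) and 2 neither (CA4 and CA5). CA3 was too low to be called. These counts describe genes picked with the values known, and nothing is read from them against the background.

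CA2, the cytosolic form, was the most abundant member in both conditions and the one with the largest loss in red light. Its level was 6643 RPKM (6619 to 6668) in darkness and 2024 RPKM (2009 to 2040) in red light, from 271998 and 67593 reads. It fell 3.28-fold (3.25 to 3.31), a log2 change of -1.71 on RPKM + 1. In darkness it was the gene model with the 5th highest RPKM of all 27416, and it took 0.662% of all reads. In red light it stood at place 59 and took 0.202%. Of the 12625 genes, 195, CA2 included, had a log2 change as low or lower. In seedlings sequenced whole, fewer cells that hold a transcript and less of it in each cell cannot be told apart.

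CA1, the chloroplast form, went the other way. It rose 5.66-fold (5.54 to 5.78), from 238 RPKM (234 to 243) in darkness to 1347 RPKM (1335 to 1359) in red light, on 10219 and 47144 reads. The log2 change was 2.50, and 228 of the 12625 genes, CA1 included, rose as much or more. By level it moved from place 750 to place 100 among all gene models. CA2 was 27.9 times as abundant as CA1 in darkness (27.4 to 28.5) and 1.50 times as abundant in red light (1.49 to 1.52), both per length of gene model. The pair that is closest in sequence was therefore also the pair with the most opposed changes, and its ratio moved 18.6-fold between the conditions.

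**Figure D1:**
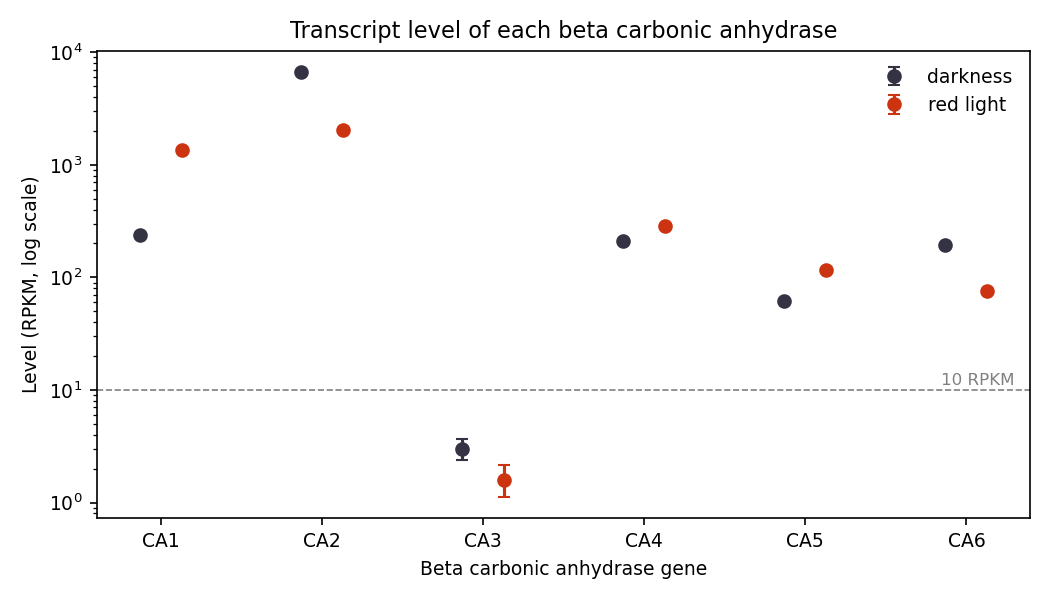
Level of each beta carbonic anhydrase in RPKM (vertical axis, log scale) in darkness and red light, 1 deposited value per condition. Bars are exact 95% counting intervals, smaller than the points except for CA3, and the dashed line is the minimum of 10 RPKM. CA2 is highest in both conditions (6643 and 2024 RPKM), and CA1 stands at 238 RPKM in darkness and 1347 in red light.

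CA5, the other chloroplast form, had 61.7 RPKM (59.2 to 64.3) in darkness against 117 RPKM (114 to 121) in red light, from 2306 and 3577 reads. The ratio was 1.90 (1.80 to 2.01) and the log2 change 0.92, so CA5 lay just short of the 2-fold rule and was not called. It was the member nearest to the threshold. CA1 was 3.86 times as abundant as CA5 in darkness (3.69 to 4.04) and 11.5 times in red light (11.1 to 11.9).

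CA6, the mitochondrial form, fell 2.58-fold (2.46 to 2.71), from 195 RPKM (190 to 199) to 75.4 RPKM (72.3 to 78.7), from 6988 and 2208 reads. Its log2 change was -1.36, and 351 of the 12625 genes, CA6 included, were as low or lower. CA4, known from the plasma membrane and the cytosol, had 212 RPKM (207 to 217) in darkness against 286 RPKM (280 to 293) in red light. These values came from 7337 and 8092 reads of CA4. Its ratio of 1.35 (1.31 to 1.40) was the one closest to 1 among the members and was not called. CA4 and CA6 were near each other in darkness, with a ratio of CA4 to CA6 of 1.09 (1.05 to 1.12), and stood apart in red light, with a ratio of 3.80 (3.62 to 3.98).

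CA3, the second cytosolic form, was scarcely detected. It had 95 reads in darkness, or 2.97 RPKM (2.41 to 3.64), and 41 reads in red light, or 1.57 RPKM (1.13 to 2.14). A floor of 3 reads corresponds to 0.0939 RPKM for this gene in darkness and 0.115 RPKM in red light, so it was above the floor in both. The ratio of 0.529 had a wide counting interval (0.358 to 0.771). CA2 was 2234 times as abundant as CA3 in darkness (1827 to 2761), although both are known from the same compartment.

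From highest to lowest, the order in darkness was CA2, CA1, CA4, CA6, CA5 and CA3. In red light it was CA2, CA1, CA4, CA5, CA6 and CA3, so that only CA5 and CA6 changed places. The counting intervals of neighbours in either order did not overlap. The closest neighbours in darkness were CA1 and CA4, with a ratio of 1.12 (1.09 to 1.16), and CA4 and CA6. Without a spread between samples it cannot be said whether these neighbours differ beyond it.

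**Figure D2:**
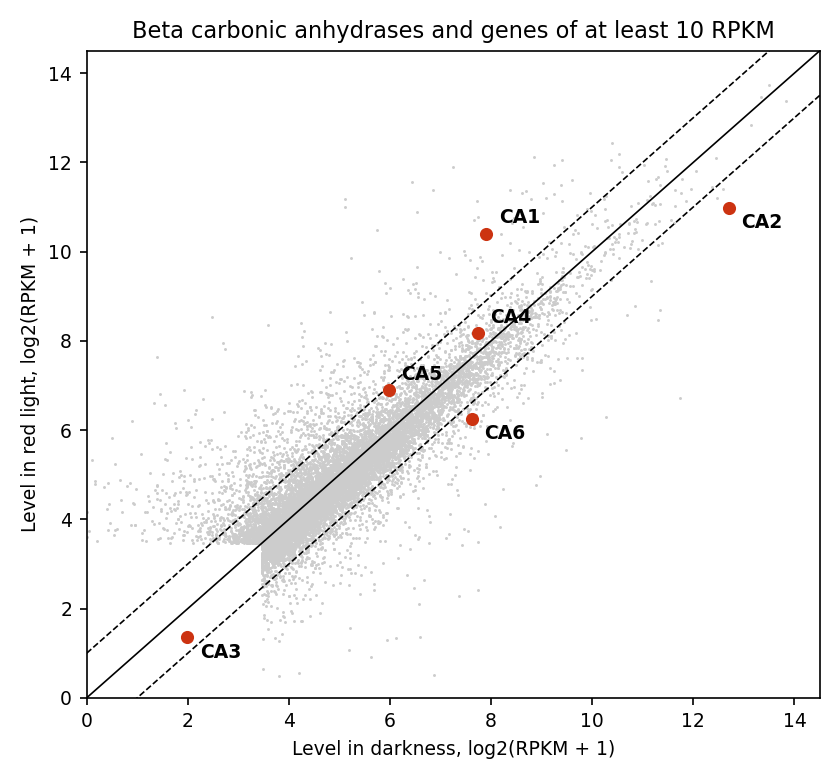
Each grey point is a gene of at least 10 RPKM in either condition, placed by log2(RPKM + 1) in darkness (horizontal) and red light (vertical), with the 6 beta carbonic anhydrases in red. The solid line marks equal values and the dashed lines a 2-fold difference. CA1 lies above the upper dashed line, CA2 and CA6 below the lower one, and CA3, CA4 and CA5 between them.

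The summed level of the family was 7353 RPKM in darkness against 3852 under red light, a ratio of 0.524. This sum follows CA2, which made up 90.4% of it in darkness and 52.6% in red light. The share of CA1 went from 3.24% to 35.0%. CA4 took 2.88% and 7.43%, CA5 0.839% and 3.05%, CA6 2.65% and 1.96%, and CA3 0.0405% and 0.0409%. Without CA2, the other 5 members summed to 709 RPKM in darkness against 1828 under red light, a ratio of 2.58. The direction of the family as a whole thus depends on whether CA2 is counted. Without both CA1 and CA2, the sum of the remaining 4 was 471 and 481 RPKM.

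By the compartment in which the enzymes are known to work, the chloroplast forms CA1 and CA5 together had 299.8 RPKM in darkness against 1464 under red light, 4.88 times as high. The cytosolic forms CA2 and CA3 together summed to 6646 and 2026 RPKM, 3.28-fold less in red light. Nearly all of this sum was CA2, since CA3 added 2.97 and 1.57 RPKM. CA4, known from both the plasma membrane and the cytosol, was left out of this sum. Chloroplast forms made up 4.08% of the family's summed level in darkness and 38.0% in red light. These are levels of transcripts, counted on 1 gene model for each locus. In the counted models the active-site stretch begins at codon 162 of 331 in CA2, 167 of 347 in CA1 and 87 of 258 in CA3. Whether the known compartment holds for the counted CA2 model was not tested. The annotation lists between 2 (CA3) and 9 (CA2) transcript models per member, with coding lengths that differ for some, and the tables cannot divide a gene's reads among them.

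**Figure D3:**
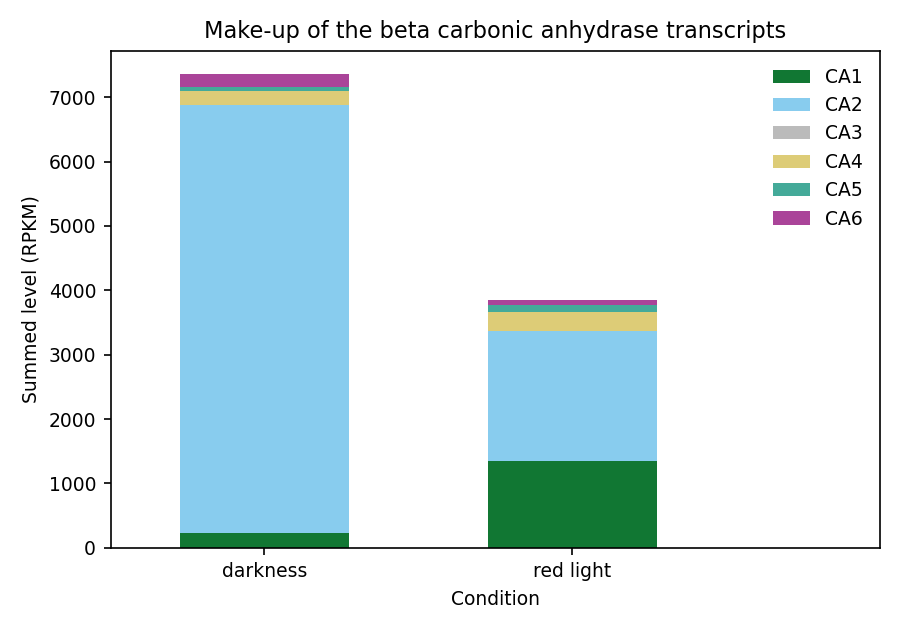
Summed RPKM of the 6 beta carbonic anhydrases in each condition (vertical axis, linear from 0), divided by member. The bar goes from 7353 to 3852 RPKM, the CA2 part shrinks from 6643 to 2024 RPKM and the CA1 part grows from 238 to 1347 RPKM.

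The files gave no coordinates, and the members were placed in the RefSeq TAIR10.1 assembly through their transcript identifiers. The coding length in that annotation matched, for all 6, the length that the deposited RPKM values imply. CA1 (AT3G01500) lay on the minus strand of chromosome 3 from 194426 to 198160, and CA2 (AT5G14740) on the plus strand of chromosome 5 from 4757934 to 4762666. Chromosome 1 held 3 members. These were CA3 (AT1G23730) at 8395509 to 8398387 on the plus strand, CA4 (AT1G70410) at 26533824 to 26538437 and CA6 (AT1G58180) at 21537577 to 21540038, both on the minus strand. CA5 (AT4G33580) was on the plus strand of chromosome 4, from 16138360 to 16141624. Each had 10 exons except CA3, which had 9.

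Of the nearest genes on each side of a member, 10 lay within 1 kb of it or overlapped its ends. Of these, 4 reached 10 RPKM and 1 was called, beside 14.0% called over all genes that reached it. AT3G01490 (CBC1), a protein kinase of the stomatal response to carbon dioxide, lay 704 bases from CA1 on the same strand. CBC1 was at 18.7 and 25.9 RPKM and was not called. AT5G14730, 111 bases to the left of CA2, was at 20.2 and 18.8 RPKM. The neighbour that was called was AOR (AT1G23740), which overlaps the end of the CA3 gene on the other strand by 273 bases. AOR, an oxidoreductase of the chloroplast that removes reactive carbonyls, rose 4.07-fold from 27.1 to 110.0 RPKM, while CA3 was at 2.97 and 1.57 RPKM.

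The windows from 250 bases before to 50 bases after the annotated start are shown for CA1, CA2 and CA6, the members that were called. They are RefSeq TAIR10.1 sequence of the strand of the gene, at chr3:198111-198410, chr5:4757684-4757983 and chr1:21539989-21540288. Capitals mark any of 5 light- and clock-related motifs, searched on both strands: the G-box CACGTG, the GATA motif GATAAG, the core ACGT, the E-box variant CACATG bound by PIF proteins, and the evening element AAAATATCT. The core lies within the G-box, so every G-box also counts as a core.
CA1: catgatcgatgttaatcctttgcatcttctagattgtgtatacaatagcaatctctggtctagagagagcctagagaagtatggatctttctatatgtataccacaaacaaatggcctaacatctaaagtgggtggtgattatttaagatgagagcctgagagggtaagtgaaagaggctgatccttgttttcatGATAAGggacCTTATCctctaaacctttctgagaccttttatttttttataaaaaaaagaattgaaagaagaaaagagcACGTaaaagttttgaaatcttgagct
CA2: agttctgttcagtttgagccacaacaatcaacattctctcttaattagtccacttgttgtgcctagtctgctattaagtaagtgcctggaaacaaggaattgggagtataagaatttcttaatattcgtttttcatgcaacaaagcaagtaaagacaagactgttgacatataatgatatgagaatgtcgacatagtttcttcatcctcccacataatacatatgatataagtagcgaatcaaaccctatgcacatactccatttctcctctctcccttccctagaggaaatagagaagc
CA6: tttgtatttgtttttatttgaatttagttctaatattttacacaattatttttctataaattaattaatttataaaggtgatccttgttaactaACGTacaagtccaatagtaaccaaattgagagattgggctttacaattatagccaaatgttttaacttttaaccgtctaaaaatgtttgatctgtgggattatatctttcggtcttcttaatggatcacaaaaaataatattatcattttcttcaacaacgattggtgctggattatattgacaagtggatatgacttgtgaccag
CA1 held the GATA motif on each strand, at positions -55 and -45 from the annotated start, and the core ACGT at position 25. A GATA motif stood in 14.8% of 26690 windows of the same length, and 1.55% held at least 2. None of the other 5 members had it. CA2 held none of the 5 motifs, and CA6 held a single core ACGT, which 49.9% of all windows had. No member had a G-box (7.85% of windows), a CACATG (12.7%) or an evening element (2.79%). A match of letters is not a bound site, a missing match says nothing of the factor, and other transcript models of CA1 start elsewhere. The annotation lists 4 models for CA1, 9 for CA2 and 7 for CA6, and only the start of the counted model was searched. AT5G14730 lay 111 bases from the CA2 gene, so part of the CA2 window may lie in that gene. LSF1 (AT3G01510), on the same strand as CA1, overlaps the end of the CA1 gene that holds its annotated start. The CA1 window, GATA motifs included, may therefore lie partly or wholly in LSF1.

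For each member of at least 10 RPKM, the genes with the nearest pair of levels were sought by the distance between log2(RPKM + 1) values. This measure rests on only 2 conditions. The genes nearest to CA1 were PSAN, a subunit of photosystem I, at 242 and 1377 RPKM, and PSBTN, a subunit of photosystem II, at 239 and 1269 RPKM. The third was PSBQA, a protein of the oxygen-evolving complex, at 290.1 and 1339 RPKM. The distances were 0.0381, 0.0861 and 0.284 log2 units. Nearest to CA2 were LTP2, a lipid-transfer protein, at 5686 and 2344 RPKM, GASA4, a gibberellin-regulated peptide, at 6182 and 2717 RPKM, and GRP3S, a glycine-rich protein, at 5293 and 2769 RPKM. Few genes are as abundant as CA2, and these distances were larger (0.308 to 0.558). CA6 was nearest to RGF6, a root meristem growth factor peptide, at 196 and 77.0 RPKM, then to ORP4C and GAT1_2.1. CA5 was nearest to RHM1, an enzyme of rhamnose synthesis, at 64.2 and 124 RPKM, followed by AT5G19250 and ASPG1. The genes nearest to CA4 were AT4G15545, ACR11 and AKR2, with distances of 0.0319 to 0.0839.

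The alpha class was low, with 1 member above 10 RPKM, and the gamma class lay between the alpha and beta classes by summed level. Of 8 alpha carbonic anhydrases, 1 was called higher, none lower, and 7 were below 10 RPKM in both conditions. Only 1 could be called, so the count cannot be set against the background of 14.0%. The exception was ACA1, known from the chloroplast, which rose 3.17-fold (2.83 to 3.57) from 11.7 to 37.0 RPKM. In each condition 4 of the 8 had no read. Of 5 gamma carbonic anhydrases and gamma-like proteins, subunits of mitochondrial complex I, none was called, which for so few genes is near the background of 14.0%. Their median log2 change was -0.20, beside -0.11 over the 12625 genes. They ranged from GAMMA CAL2 at 117 and 67.8 RPKM (log2 change -0.77) to GAMMA CA1 at 23.6 and 25.5 RPKM (0.11). The alpha class summed to 12.8 RPKM in darkness against 38.5 in red light and the gamma class to 380.3 and 316 RPKM, against 7353 and 3852 RPKM for the beta class.

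Carboxylases that use bicarbonate held calls in both directions. Of 14, 12 reached 10 RPKM, 1 was called higher, 2 lower and 9 neither, beside 14.0% called over all genes that reached it. The median log2 change of the 12 was -0.21, beside -0.11. PPC2, a phosphoenolpyruvate carboxylase of the cytosol, rose 2.85-fold (2.75 to 2.96) from 32.6 to 92.9 RPKM. MCCA and MCCB, the subunits of the mitochondrial methylcrotonyl-CoA carboxylase of leucine breakdown, fell 6.87-fold from 338 to 49.2 RPKM and 3.76-fold from 156 to 41.5 RPKM. The 2 called lower are thus subunits of 1 enzyme. The 4 nuclear genes of the plastid acetyl-CoA carboxylase in the list, CAC1, BCCP2, CAC2 and CAC3, were not called, and its plastid-encoded subunit was not in the list. CAC2, its biotin carboxylase, was at 130.4 and 122 RPKM.

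Of 13 genes of the stomatal response to carbon dioxide, only 6 reached 10 RPKM and could be called. None of these 6 was called, and 6 genes are too few to set apart from the background of 14.0%. The median log2 change of the 6 was -0.16, beside -0.11 over the 12625 genes. The ratios of CRSP, OST1, MPK4 and CBC2 were 0.675, 0.692, 0.861 and 0.927. Those of CBC1 and PATROL1 were 1.38 and 1.02. Among the 7 below 10 RPKM, the kinase HT1 was at 1.34 and 2.21 RPKM and the anion channel SLAC1 at 0.218 and 0.161 RPKM. EPF2, a peptide that limits stomatal number, was at 1.81 and 5.34 RPKM, a ratio of 2.95 (1.86 to 4.81), past 2-fold on RPKM + 1 but under the minimum. ALMT12, another anion channel, was at 0.636 and 1.70 RPKM, a ratio of 2.68 (1.85 to 3.91). Of 7 guard cell markers, 4 were below 10 RPKM, and their summed level was 40.1 RPKM in darkness against 58.2 in red light. Of the 3 markers that reached 10 RPKM, GC1, a protein of the gibberellin-regulated family, was called higher, at 3.99 and 14.4 RPKM. Over all genes that reached 10 RPKM, 8.69% were called higher, and 3 markers are too few to compare with that share. KAT1, a potassium channel, and MYB60, a transcription factor, were not called, at 8.18 and 10.6 RPKM and at 20.1 and 17.2 RPKM. The higher sum came mostly from GC1 and from SPCH, a factor of the early stomatal lineage, at 1.82 and 9.92 RPKM. FAMA, MUTE and EPF1 lay between 0.639 and 3.09 RPKM in both conditions. The part of guard cells in the changes of CA1 and CA4 was not tested.

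Rubisco, the enzyme that fixes carbon dioxide in the chloroplast where CA1 works, was set beside it. Rubisco activase (RCA) rose 6.50-fold (6.41 to 6.59), from 390.1 to 2536 RPKM, and CA1 5.66-fold. RBCS1A, the most abundant of the small subunit genes listed, was at 10360 and 11296 RPKM and was not called. The other 3 small subunit genes of the list were called higher, with ratios of 4.02 (RBCS1B), 3.14 (RBCS3B) and 2.28 (RBCS2B). With RCA, 4 of these 5 genes were called higher, beside 8.69% over all genes that reached 10 RPKM. The list was chosen with earlier results known, so nothing is read from this count. The RBCS B genes are near-identical copies, so how reads were divided among them is uncertain. The aquaporins PIP1;2 and PIP2;1, known to let carbon dioxide through membranes, were at 2832 and 4298 RPKM and at 2771 and 3854 RPKM. Neither was called.

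**Figure D4:**
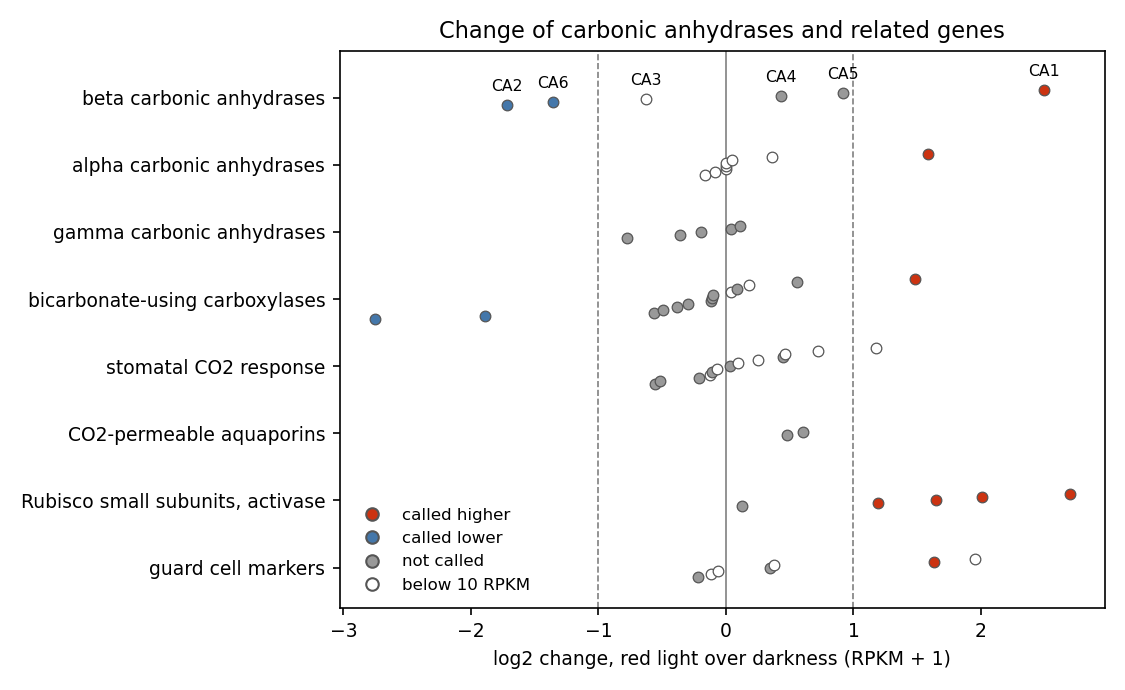
Log2 change on RPKM + 1, red light over darkness (horizontal axis), of each gene in the beta carbonic anhydrases and 7 related lists (rows, spread vertically only for legibility). Red and blue points were called higher and lower, grey points were not called, white points were below 10 RPKM, and dashed lines mark a 2-fold difference. The beta class spans -1.71 (CA2) to 2.50 (CA1), whereas the gamma class spans -0.77 to 0.11.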

How the data were processed

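Whole seedlings were sequenced in 2 conditions, with 2 samples each by the labels. For each condition the authors gave reads and RPKM, per the file headers. Estimated counts, as deposited, held whole numbers, and 0.5 where no read was counted (4059 genes in darkness, 4164 in red light), set to 0 here. The authors' RPKM values imply gene lengths that were whole within 0.01 bases and multiples of 3 for 99.99% of genes, so they are coding lengths. TAIR10 was the build, per the submitters' processing notes, with aligner, counter and strand not given in the sources used here.

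The members and gene lists were chosen with earlier results of these data known. With 1 column per condition the edgeR test of the design could not be run, and the 2-fold rule with a minimum of 10 RPKM was used. Intervals are exact (Clopper-Pearson for ratios, Poisson for levels). Reads are not independent molecules. Named were all members, up to 3 called genes per list and direction, the 3 genes nearest to each member, RBCS1A and RCA. The design also named the nearest gene on each side of a member within 1 kb. Of these only CBC1, LSF1, AT5G14730 and AOR were named, which departs from the design. The gamma genes, plastid acetyl-CoA carboxylase genes, HT1, SLAC1, EPF2, ALMT12, the guard cell markers other than GC1 and both aquaporins were added after their values were seen.

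RefSeq TAIR10.1 matched 26691 of 27416 gene models by transcript identifier, 25787 of them with equal coding length. Calls were recomputed with factors from edgeR 4.0.16 and DESeq2 1.42.0 and with other settings, among them one without 210 organelle gene models. Other software was Python 3.11.15 with scipy 1.17.1, numpy 2.4.6, pandas 2.3.3, Biopython 1.88 and matplotlib 3.10.9, and R 4.3.3. The rule was checked on simulated reads that carried counting error alone, so the check cannot show how it fares with variation between samples.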

Additional observations from a re-analysis of the deposited data

How the results depend on the processing

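The calls of CA1, CA2 and CA6, and the lack of a call for CA3, CA4 and CA5, were the same under TMM, median-of-ratios and upper-quartile factors, quantile normalization, a pseudocount of 0.1, a minimum of 1 RPKM or none, a rule that asked the entire interval to pass, and the removal of organelle genes. Over these settings the log2 change of CA1 ranged from 2.36 to 2.56, that of CA2 from -1.72 to -1.64, that of CA6 from -1.37 to -1.29 and that of CA5 from 0.91 to 0.99. A 4-fold threshold left 1 member called (CA1) and 0 called lower, since CA2 at -1.71 and CA6 at -1.36 lie short of it. It called 522 genes in all, 398 higher and 124 lower, in place of 1773, 1097 and 676. The order of the members by level was the same with transcript lengths that include untranslated regions. No paired analysis was possible because each condition had 1 column that carries no replicate number, and for the same reason no replicate could be left out. Depth limits CA3 alone among the members, at 95 and 41 reads.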

Other observations

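The abundance of CA2 in darkness set it among a small group of transcripts, looked up after the values were seen. The 4 gene models above it in darkness were AT3G52700, annotated as uncharacterized, CAB1 (LHCB1.3), RBCS1A and TIP2, a vacuolar water channel, and none of these was called. They were at 14576 and 10661 RPKM, 11628 and 13693 RPKM, 10360 and 11296 RPKM, and 9069 and 7351 RPKM in darkness and red light. CA2 was thus the most abundant transcript of darkness that was called.

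Of 108 genes with at least 1000 RPKM in darkness, 15 were called lower and 5 higher in red light. Over the 12625 genes the rule called 5.35% lower and 8.69% higher. The 108 were picked by their dark level, a choice that by itself favours falls, so nothing is read from these counts. CA2 had the highest dark level of the 15 and the 8th largest fall. The largest falls of the 15 were those of XTH15, a cell wall enzyme (32.4-fold), SEN1, also called DIN1 (16.0-fold), and DYL1 (7.09-fold). The smallest was that of EBP, an ethylene-responsive factor (2.02-fold).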
